A study of Homo sapiens with 9 samples.

Results

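The subject is the MYC, MAX and MXD network, 8 genes for transcription factors that were chosen by name: MYC, MAX, MXI1, MXD1, MXD3, MXD4, MNT and MGA. The choice was made with earlier results of these data known. All 8 were found among the 58347 genes of the deposited count table, and all 8 passed the filter on low counts that left 23675 genes for testing. RNA was sequenced from K562, a human erythroleukaemia line, that expressed 3 constructs from the EF1a promoter. They were dCas9, a Cas9 without cutting activity that a guide RNA (sgRNA) directs to a site, MS2-Fkbp(1x), and SS18-Frb, a fusion of a subunit of the BAF chromatin remodelling complex. Fkbp and Frb bind each other when rapamycin is present, which brings SS18 to the guide's site. The drug itself also inhibits the kinase complex mTORC1 whichever guide is present. Treatment was 24 h of rapamycin at 10 nM, or DMSO. HBG1 promoter sgRNA cells gave 3 libraries under each treatment, and cells with a non-targeting sgRNA gave 2 libraries under rapamycin (replicates 1 and 2) but only 1 under DMSO (replicate 2). Every group, controls included, carried all 3 constructs, and whether the line is a clone or a pool is not given in the sources used here. The labels do not say that replicates were separate cultures, so the spread between them, and each p-value, may be technical.

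The libraries held between 19797409 and 31619671 counts. Levels are given as CPM, a count relative to its library's TMM-scaled total. The erythroid markers GATA1, TAL1, KLF1, LMO2, HBZ, HBE1 and TFRC were detected in every library. With the HBG1 sgRNA, 2 of them were called between the treatments by the quasi-likelihood test of edgeR: GATA1, the erythroid master regulator, rose by 0.31 on the log2 scale under rapamycin, and TFRC, the transferrin receptor, fell by 0.28. With the replicate number as a block, LMO2, HBZ and HBE1 were called too, as higher (adjusted p 0.00914, 0.00294 and 0.0423, edgeR). Of all tested genes 6.8% were called without the block, and 17.1% of the genes in the fit with it. The lymphoid markers CD3E, MS4A1 and CD79A stayed at or below 0.361 CPM, CD14 and CSF1R (monocyte) at or below 1.22 CPM, and KRT5 at 0. EPCAM, on the epithelial list, stood at 36.9 CPM or more, and COL1A2 and COL1A1, on the fibroblast list, at 3.01 to 24.8 and 1.30 to 2.20 CPM. None of these non-erythroid markers was called between the treatments without the block, COL1A2 was called as higher with it (log2 fold change 0.59, adjusted p 0.565 without and 0.00922 with the block, edgeR), and the part of any of these markers in the results was not tested. HBG1, the gene the guide addresses, rose by 2.71 on the log2 scale (SE 0.28) under rapamycin where its own guide was present.

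MYC is a basic helix-loop-helix leucine zipper factor that binds DNA only as a dimer with MAX, preferably at the E-box, and raises transcription of genes for growth, ribosome production and metabolism. MXD1, MXI1, MXD3, MXD4 and MNT also pair with MAX. Their dimers take the same sites and bring the SIN3 and histone deacetylase corepressor, so the network is often described as a balance between MYC and its antagonists. MGA is a large MAX partner of the PRC1.6 repressor complex. In blood cells, MXD genes are known for rising as cells leave the cycle and mature.

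MXD4 was the member that changed most. In HBG1 sgRNA cells it rose 1.81-fold under rapamycin, and in non-targeting cells it stood 1.96-fold above the single DMSO library. MAX, the shared dimer partner, was 1.26-fold lower in HBG1 sgRNA cells. MYC itself differed little, at 1.14-fold. Genes with an adjusted p under 0.05 count as called (quasi-likelihood test of edgeR, Benjamini-Hochberg adjustment over all tested genes). By that rule 2 of the 8 members were called, 1 higher and 1 lower. Of all tested genes 6.8% were called, 2.75% as higher and 4.05% as lower. With the replicate number as a block 4 members were called, where 17.1% of all genes in that fit were.

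MXD4 (ENSG00000123933) lies on the minus strand of chromosome 4, from 2247432 to 2262294 (GRCh38, GENCODE 29). It encodes an MXD repressor that competes with MYC for MAX. In the HBG1 sgRNA libraries, replicates 1, 2 and 3 had 28.2, 23.5 and 27.8 CPM under DMSO and 53.1, 43.2 and 47.3 CPM under rapamycin. Every rapamycin library lay above every DMSO library. The group levels were 26.5 ± 2.61 CPM (SD, n = 3) and 47.8 ± 4.96 CPM (SD, n = 3). The log2 fold change was 0.85 (SE 0.11, 95% interval 0.63 to 1.08, adjusted p 0.000285, edgeR quasi-likelihood test), the 41st smallest p of 23675 genes. It rose in each of the 3 replicate pairs, by 0.91, 0.88 and 0.76 on the log2 scale. In non-targeting cells MXD4 had 24.5 CPM under DMSO and 50.7 and 45.1 CPM under rapamycin, values within a few CPM of those with the HBG1 sgRNA. Only 80 of its exon bases, 1.13%, lie in another counted gene (MIR4800).

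The promoter of MXD4 is shown because this member rose most and because its window holds the E-box that MYC and MAX dimers read, which is set in capitals. Windows run from 250 bases before to 50 bases after a start site and are taken from RefSeq (GRCh38.p14). In the MXD4 window (chr4:2262060-2262359, minus strand, printed 5′ to 3′) the first base of the E-box is at position -238 from the start site.
MXD4: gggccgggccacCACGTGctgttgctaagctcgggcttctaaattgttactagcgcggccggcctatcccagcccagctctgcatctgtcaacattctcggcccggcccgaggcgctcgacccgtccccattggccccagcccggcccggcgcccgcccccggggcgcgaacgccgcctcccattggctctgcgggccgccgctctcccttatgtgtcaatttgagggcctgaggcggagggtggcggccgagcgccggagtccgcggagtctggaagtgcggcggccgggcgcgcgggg

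The E-box was searched as CACGTG, which reads the same on both strands. Of 12 windows for 7 members, 2 held it, those of MXD4 and MNT, against 7.26% of all 35116 promoter windows of this length. No window for MYC was used here. A match is a run of letters and not a shown binding site.

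MXI1, the second MXD gene with higher values under rapamycin, encodes another MAX-binding antagonist. It lies on the plus strand of chromosome 10, 110207605 to 110287365. HBG1 sgRNA cells had 17.6, 19.4 and 16.6 CPM under DMSO and 20.1, 23.6 and 21.2 CPM under rapamycin in replicates 1, 2 and 3. The groups did not overlap, but the difference was not called (log2 fold change 0.27, SE 0.11, 95% interval 0.04 to 0.51, adjusted p 0.166, edgeR). The non-targeting libraries held 18.5 CPM under DMSO and 24.0 and 26.1 CPM under rapamycin, a log2 fold change of 0.43 without a test.

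RefSeq lists 3 start sites for MXI1, and the windows of 2 of them hold a match to the forkhead (FOXO) core, searched as TGTTTAC on both strands. They are shown because, of the 7 members with windows, MXI1 alone had such a match, which 3.42% of all windows hold. FOXO factors are held out of the nucleus by AKT, a kinase upstream of mTORC1. Capitals mark the match, whose first base is at position -151 in the first window (chr10:110209981-110210280) and -2 in the second (chr10:110225746-110226045), where it reads on the opposite strand. Counts per gene do not tell which of the start sites was in use.
MXI1 first window: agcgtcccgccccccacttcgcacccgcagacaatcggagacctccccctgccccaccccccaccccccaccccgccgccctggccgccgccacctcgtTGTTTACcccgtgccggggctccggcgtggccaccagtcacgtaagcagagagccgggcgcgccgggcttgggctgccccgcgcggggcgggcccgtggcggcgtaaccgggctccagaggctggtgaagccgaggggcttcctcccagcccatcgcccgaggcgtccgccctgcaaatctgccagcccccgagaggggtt
MXI1 second window: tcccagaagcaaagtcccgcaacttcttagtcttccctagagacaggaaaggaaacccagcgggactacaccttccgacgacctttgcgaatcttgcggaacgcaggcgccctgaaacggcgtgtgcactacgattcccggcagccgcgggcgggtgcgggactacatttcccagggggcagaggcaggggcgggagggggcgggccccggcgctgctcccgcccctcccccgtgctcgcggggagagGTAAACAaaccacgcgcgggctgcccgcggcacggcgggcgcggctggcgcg

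MXD3 was the most abundant of the MXD genes and stood lower under rapamycin. It encodes an MXD repressor known from dividing cells, where it peaks during S phase, and lies on the minus strand of chromosome 5, 177301461 to 177312757. Under DMSO the HBG1 sgRNA libraries had 218, 203 and 203 CPM, and under rapamycin 194, 176 and 174 CPM. The groups did not overlap. The log2 fold change was -0.20 (SE 0.08, 95% interval -0.36 to -0.04) and was not called (adjusted p 0.134, edgeR). A fit of these 6 libraries with the replicate number as a block called it as lower (-0.19, adjusted p 0.0246, edgeR). Of the exon bases of MXD3, 40.4% lie in RAB24 or PRELID1. PRELID1 fell by 0.28 on the log2 scale (adjusted p 0.0261, edgeR) and RAB24 had -0.11 (adjusted p 0.571, edgeR), and the part of shared reads in the MXD3 values was not tested. Non-targeting cells had 199.5 CPM under DMSO and 147 and 165 CPM under rapamycin.

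MXD1, the founding MXD gene known for its link to myeloid maturation, did not separate the treatments. It lies on the plus strand of chromosome 2, 69897688 to 69942945. HBG1 sgRNA cells had 42.6, 49.2 and 49.3 CPM under DMSO and 41.4, 40.1 and 47.4 CPM under rapamycin, which overlap. Its log2 fold change was -0.13 (95% interval -0.32 to 0.07, adjusted p 0.49, edgeR). Non-targeting cells had 56.0 CPM under DMSO and 48.6 and 47.0 CPM under rapamycin.

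MAX (ENSG00000125952), on the minus strand of chromosome 14 from 65006174 to 65102695, encodes the shared dimer partner of the other factors here. HBG1 sgRNA cells had 40.9, 41.3 and 39.1 CPM under DMSO and 31.9, 31.8 and 32.7 CPM under rapamycin in replicates 1, 2 and 3. All rapamycin libraries were lower, and the SD within a group was 1.15 CPM under DMSO and 0.487 CPM under rapamycin (n = 3 each). MAX fell by 0.33 on the log2 scale (SE 0.09, 95% interval -0.51 to -0.15, adjusted p 0.0271, edgeR). MAX in non-targeting cells was at 41.4 CPM under DMSO and 37.1 and 35.3 CPM under rapamycin, a log2 fold change of -0.20 without a test. The call was lost with upper quartile scaling (adjusted p 0.0514) and without HBG1 sgRNA DMSO replicate 1, 2 or 3 (0.0599, 0.111 and 0.0651) or HBG1 sgRNA rapamycin replicate 2 or 3 (0.0635 and 0.0797), all by edgeR, while the log2 fold change stayed between -0.35 and -0.29.

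MYC (ENSG00000136997), on the plus strand of chromosome 8 from 127735434 to 127741434, shares no exon base with another counted gene. In HBG1 sgRNA cells it had 247, 219 and 211 CPM under DMSO and 252, 266 and 253 CPM under rapamycin. The groups did not overlap, but DMSO replicate 1 came within a few CPM of the rapamycin libraries. The log2 fold change was 0.19 (SE 0.07, 95% interval 0.03 to 0.34) and was not called (adjusted p 0.15, edgeR). By replicate pair it was 0.03, 0.28 and 0.26. With the replicate block MYC was called as higher (0.20, SE 0.06, adjusted p 0.0315, edgeR), and it was also called without HBG1 sgRNA DMSO replicate 1 (0.26, adjusted p 0.049, edgeR). Its non-targeting values were 210.1 CPM under DMSO and 240.2 and 241 CPM under rapamycin.

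MNT, a broadly expressed MAX partner that represses through SIN3, lies on the minus strand of chromosome 17 from 2384060 to 2401118. Its values in HBG1 sgRNA cells were 33.3, 30.6 and 30.7 CPM under DMSO and 29.2, 35.6 and 32.8 CPM under rapamycin, and the groups overlap. Its log2 fold change was 0.04 (95% interval -0.16 to 0.25, adjusted p 0.85, edgeR), and 12.2% of its exon bases lie in the antisense gene AC006435.1. Non-targeting cells had 30.7 CPM under DMSO and 28.6 and 29.4 CPM under rapamycin.

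MGA lies on the plus strand of chromosome 15 from 41621224 to 41773081, and its level varied between replicates under rapamycin with either guide. HBG1 sgRNA cells had 71.2, 80.8 and 78.1 CPM under DMSO and 61.1, 77.3 and 76.8 CPM under rapamycin. Non-targeting cells had 83.4 CPM under DMSO and 99.1 and 74.6 CPM under rapamycin. The lowest and the highest value were thus both replicate 1 of a rapamycin group. The log2 fold change with the HBG1 sgRNA was -0.09 (95% interval -0.33 to 0.14, adjusted p 0.689, edgeR).

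**Figure D1:**
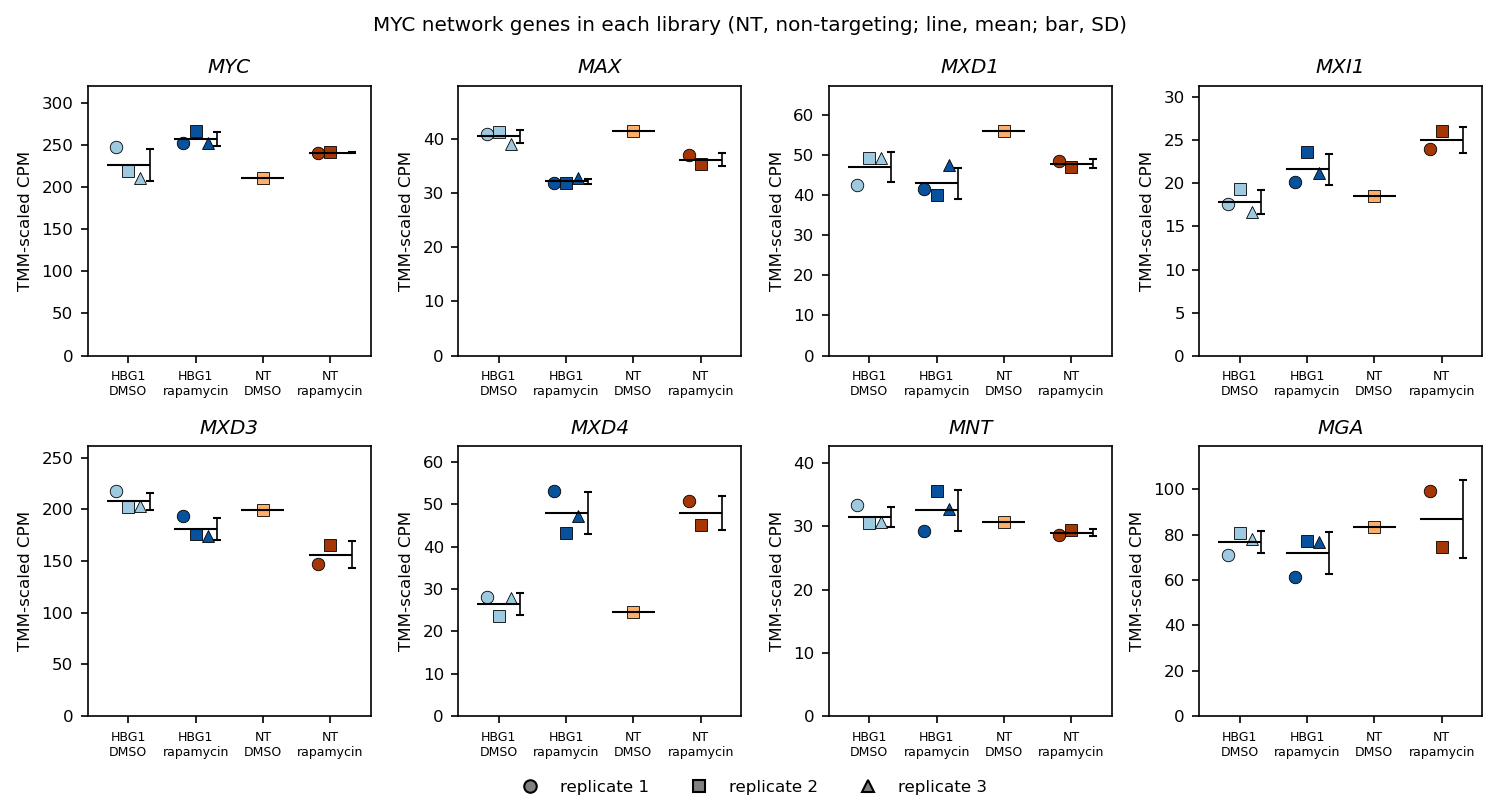
TMM-scaled CPM (vertical axis, from 0) of the 8 genes in each of the 9 libraries, grouped by guide (NT, non-targeting) and treatment. Points are libraries with a shape for each replicate number, lines are group means and bars SD. MXD4 sits at 23.5 to 28.2 CPM in the 4 DMSO libraries and at 43.2 to 53.1 CPM in the 5 rapamycin libraries, and MAX is lower in every rapamycin library than in every DMSO library.

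Across the 8 members, 5 had no overlap between the treatments in HBG1 sgRNA cells. MYC, MXI1 and MXD4 were higher in all 3 rapamycin libraries, a state that 12.2% of all tested genes showed, and MAX and MXD3 were lower, as 13.1% were. The median log2 fold change of the members was -0.02, against 0.02 over all tested genes, since the members went both ways. The rapamycin difference with the non-targeting sgRNA, from other libraries, had the same sign for 6 of the 8 members, all but MNT and MGA. That share, 75%, is near the 68% found over all tested genes, while among the genes called with the HBG1 sgRNA it was 97.7%. In this comparison the 2 actions of rapamycin, SS18 brought to HBG1 and mTORC1 inhibited, cannot be told apart. In bulk RNA, a lower level in each cell and fewer cells with the RNA cannot be told apart.

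**Figure D2:**
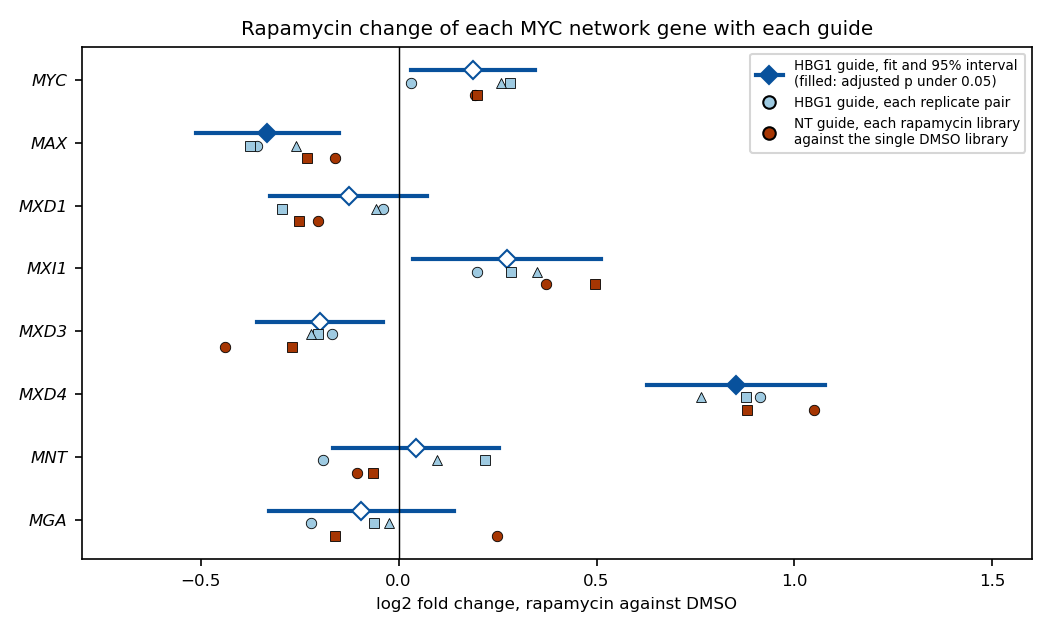
Log2 fold change between rapamycin and DMSO (horizontal axis) for each gene. Diamonds and bars are the fit and 95% interval with the HBG1 guide, filled where called, pale points are its 3 replicate pairs and brown points are the non-targeting rapamycin libraries set against the single DMSO library. MXD4 is to the right of 0 and MAX to the left at every point, and the points of MNT and MGA lie on both sides.

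The order of levels was compared per kilobase of exon (CPM divided by the length of all annotated exons), a scale that understates genes with long exons that K562 may not use. Under DMSO with the HBG1 sgRNA, MYC stood first at 75.2 ± 6.29 CPM per kb (SD, n = 3). MXD3 followed at 40.3 ± 1.64, MAX at 9.12 ± 0.259 and MXD1 at 7.41 ± 0.604 CPM per kb (SD, n = 3). None of these overlapped with its neighbour in the order. MGA (4.34), MXI1 (3.88), MXD4 (3.75) and MNT (3.61 CPM per kb) came last, and each overlapped with its neighbour in the order. MYC ranked 648th of 23562 genes by mean level per kb over all 9 libraries.

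Under rapamycin MXD4 left that lowest set. It stood at 6.78 ± 0.703 CPM per kb (SD, n = 3), overlapping with MAX at 7.25 ± 0.11 above it and MXD1 at 6.77 ± 0.608 below it (SD, n = 3 each). MXI1 (4.70), MGA (4.06) and MNT (3.73 CPM per kb) came last and overlapped in turn.

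The make-up of the MXD set moved, and its sum was on average lower under rapamycin, with overlap in HBG1 sgRNA cells. Summed over MXD1, MXI1, MXD3 and MXD4, the level was 55.4 ± 1.19 CPM per kb under DMSO and 53.4 ± 2.28 under rapamycin with the HBG1 sgRNA (SD, n = 3 each). The non-targeting sum was 55.0 in the DMSO library and 50.1 ± 2.10 CPM per kb (SD, n = 2) under rapamycin. MXD4 made up 6.78 ± 0.594% of the sum under DMSO and 12.7 ± 0.792% under rapamycin with the HBG1 sgRNA (SD, n = 3 each). The non-targeting shares were 6.30% and 13.6 ± 1.69% (SD, n = 2). The share of MXD3 was 72.8 ± 1.39% under DMSO and 65.8 ± 1.40% under rapamycin (SD, n = 3 each). MXD3 is thus the largest part of the sum, and its shared exon bases named above bear on the sum and on every share.

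Ratios between members followed from these levels and were given no test. The level of MYC per kb was 20.1 ± 2.10 times that of MXD4 under DMSO and 12.8 ± 1.67 times under rapamycin with the HBG1 sgRNA (SD, n = 3 each). The lowest DMSO library had 17.8 and the highest rapamycin library 14.5. The non-targeting ratio was 20.2 under DMSO and 11.2 and 12.6 under rapamycin. MYC to MAX went the other way, at 8.24 ± 0.589 under DMSO and 11.8 ± 0.495 under rapamycin (SD, n = 3 each), and MYC to the MXD sum was 1.36 ± 0.0852 and 1.61 ± 0.108.

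**Figure D3:**
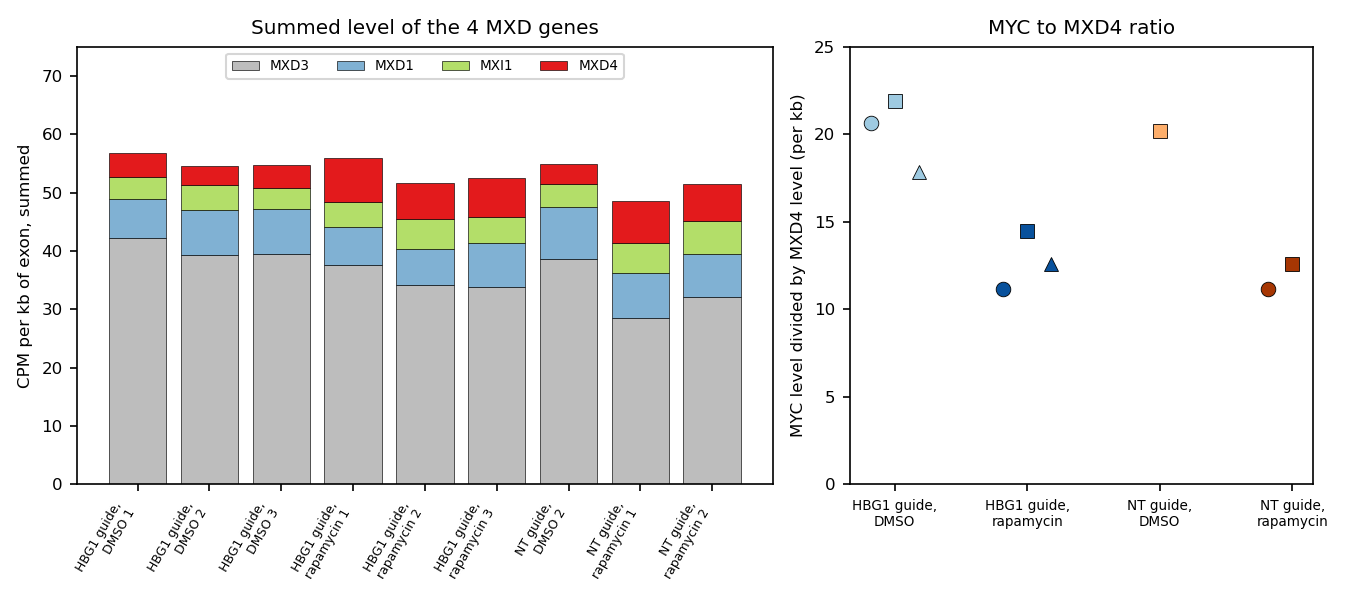
Left, summed level of the 4 MXD genes in CPM per kb of exon (vertical axis) in each library, with MXD4 on top. Right, the level of MYC divided by that of MXD4 (vertical axis) by group, a point for each library. The bars reach 54.6 to 56.7 in the DMSO libraries and 48.6 to 56.0 in the rapamycin libraries. MXD4 takes 6.10% to 7.20% of the sum in the DMSO libraries and 11.8% to 14.8% in the rapamycin libraries.

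The guides were compared under rapamycin, which asks whether the network differs with SS18 addressed to HBG1 or to no site. None of the 8 members was called (0 of 8 by edgeR's quasi-likelihood test, by DESeq2 and by limma voom), and 0.0296% of all tested genes were, 0.0169% as higher and 0.0127% as lower. Of the erythroid markers HBE1, embryonic epsilon globin, was called as higher with the HBG1 sgRNA (log2 difference 1.89, adjusted p 0.0122, edgeR), and its part in the members' values was not tested. At an unadjusted p under 0.05 there were 2 members, MXD3 (log2 difference 0.21, HBG1 sgRNA higher) and MGA (-0.28). Many other genes passed that threshold. MGA, at an unadjusted p of 0.0393 (edgeR), ranked only 1179th of 23675 genes. MXD4 was at 47.8 ± 4.96 CPM (SD, n = 3) with the HBG1 sgRNA and 47.9 ± 3.97 CPM (SD, n = 2) with the non-targeting sgRNA, and the 95% interval of its log2 difference ran from -0.25 to 0.24. In 4 of the 8 members the libraries of the guides did not overlap, MYC and MXD3 higher and MAX and MXI1 lower with the HBG1 sgRNA, against 22.6% of all tested genes. Without non-targeting rapamycin replicate 1 the log2 difference of MGA was -0.05, and without replicate 2 it was -0.46.

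The interaction, the rapamycin change of HBG1 sgRNA cells minus that of non-targeting cells, was tested on the assumption that the non-targeting DMSO group, which has 1 library, varies like the rest. No member was called (0 of 8, with 0 at an unadjusted p under 0.05 by edgeR and 0 called by DESeq2 or limma voom), against 0.00422% of all tested genes. For MXD4 it was -0.12 (95% interval -0.52 to 0.29) and for MAX -0.14 (95% interval -0.46 to 0.19). For MYC the interval ran from -0.29 to 0.27. Under DMSO, log2 differences of the HBG1 sgRNA libraries from the single non-targeting library lay between -0.25 (MXD1) and 0.11 (MXD4), without a test.

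Related factors outside the 8 were read from the same fit. MYCN was nearly absent, at no more than 0.0475 CPM in any library, and did not enter the test. MYCL had 8.99 ± 1.22 CPM under DMSO and 11.7 ± 1.51 CPM under rapamycin with the HBG1 sgRNA (SD, n = 3 each), a log2 fold change of 0.37 (adjusted p 0.166, edgeR). MLX, the MAX-like partner of the glucose-sensing branch, had -0.25 (adjusted p 0.054, edgeR), and its partners MLXIP (MondoA) and MLXIPL (ChREBP) had 0.20 and 0.35 (adjusted p 0.19 and 0.345, edgeR). MLXIP was at 0.12 without HBG1 sgRNA DMSO replicate 1, and MLXIPL at 0.09 without rapamycin replicate 1. None of these 4 tested genes was called (3 had an unadjusted p under 0.05), but DESeq2 and limma voom each called 1, MLX as lower. Many other genes passed that unadjusted threshold between the treatments, and DESeq2 and limma voom each called more of all genes than edgeR did. With the replicate block 2 were called, MLX as lower (adjusted p 0.0129) and MLXIP as higher (0.0173), where 17.1% of all genes in that fit were.

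Partners that the network recruits were read next. Of 15 MYC transcription cofactors 1 was called, a share of 6.67% that is near the 6.8% of all tested genes. It was WDR5, a scaffold of histone methyltransferases that binds MYC, which fell by 0.35 on the log2 scale (SE 0.07, adjusted p 0.00797, edgeR). The list's median was -0.11, and with the replicate block 5 were called, all as lower, where 17.1% of all genes were. Of 16 genes of the SIN3 and histone deacetylase corepressor, through which MXD and MNT repress, 0 were called by edgeR, DESeq2 or limma voom, with 3 at an unadjusted p under 0.05 and a median of -0.09. Of 9 genes of the PRC1.6 complex that holds MGA, 0 were called by edgeR, with 5 at an unadjusted p under 0.05 and a median of -0.19. DESeq2 called 4 of these 9, limma voom 1 and the replicate block 4, all as lower. DESeq2 and limma voom each called more of all genes than edgeR did, and the block called 17.1%. An unadjusted p under 0.05 was common among all genes too. MXI1, at 0.0261 (edgeR), ranked only 3710th of 23675 genes between the treatments.

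Among 14 genes that control the stability of the MYC protein, 13 were lower and 1 higher, with a median of -0.22. Of these, 3 were called as lower and 0 as higher, where 4.05% of all tested genes were called as lower and 2.75% as higher. The count called as lower was 1 without HBG1 sgRNA DMSO replicate 2 or 3 or rapamycin replicate 3. SKP2, a ubiquitin ligase subunit that acts on MYC and on CDK inhibitors, fell from 61.7 ± 1.65 to 45.8 ± 1.91 CPM (SD, n = 3 each), by 0.43 on the log2 scale (adjusted p 0.00396, edgeR). USP36, a nucleolar deubiquitinase of MYC, fell by 0.36 (adjusted p 0.0142, edgeR), and GSK3A, a kinase that marks MYC for decay, by 0.26 (adjusted p 0.0417, edgeR). The call of USP36 was lost without HBG1 sgRNA DMSO replicate 2 or 3 or rapamycin replicate 3, with adjusted p up to 0.0744, and that of GSK3A under 11 of 17 alternatives, with adjusted p up to 0.159 without HBG1 sgRNA DMSO replicate 2 (edgeR). With the replicate block 5 of the 14 were called, against 17.1% of all genes.

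Genes that MYC is known to activate were mostly lower under rapamycin. Of 24 ribosome biogenesis genes that MYC activates, all 24 were lower with the HBG1 sgRNA, and 22 were called as lower. The median log2 fold change was -0.45 against 0.02 over all tested genes, of which 4.05% were called as lower. Without HBG1 sgRNA rapamycin replicate 3 the count called as lower was 13. The 8 members and all lists, those above included, were chosen with earlier results of these data known. Their shares are thus a description and not an independent test. The largest falls were those of UTP20 and NIP7, which take part in maturation of ribosomal RNA, and NOP2, an RNA methyltransferase, at -0.72 (SE 0.11, adjusted p 0.00135), -0.57 (SE 0.10, adjusted p 0.00227) and -0.57 (SE 0.07, adjusted p 0.000337, edgeR). NPM1 and FBL were not called, at -0.14 and -0.23 (adjusted p 0.358 and 0.0555, edgeR), but FBL was with the replicate block (adjusted p 0.00852). In non-targeting cells all 24 values were below 0 as well. Between guides under rapamycin 0 were called by edgeR, DESeq2 or limma voom, with 3 at an unadjusted p under 0.05. In that comparison MGA, at an unadjusted p of 0.0393 (edgeR), ranked only 1179th of 23675 genes.

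Of 24 growth and metabolism genes that MYC activates, 22 were lower and 2 higher, with a median of -0.31. Of these, 14 were called as lower and 0 as higher, where 4.05% of all tested genes were called as lower. The count called as lower was 7 without HBG1 sgRNA rapamycin replicate 3 and 9 without HBG1 sgRNA DMSO replicate 2. Without that DMSO library 664 of all genes were called in either direction, against 1609 in the main fit. With the replicate block 20 of the 24 were called as lower, where 17.1% of genes in that fit were called in either direction. SLC7A5, a transporter of large neutral amino acids, fell from 189 ± 7.47 to 102 ± 10.4 CPM (SD, n = 3 each), by 0.89 on the log2 scale (adjusted p 5.47e-05, edgeR). HSPE1 and HSPD1, the mitochondrial chaperonin pair, fell by 0.73 and 0.55 (adjusted p 0.000388 and 0.000821, edgeR).

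Of 11 tested genes that MYC is known to repress, 10 were higher and 1 lower, with a median of 0.32. Of these, 3 were called as higher and 0 as lower, where 2.75% of all tested genes were called as higher. Those called were CCNG2, a cyclin of resting cells, HBP1, a repressor of cell cycle genes, and BTG1, an antiproliferative gene. Their log2 fold changes were 0.88, 0.65 and 0.46 (adjusted p 0.0165, 0.000405 and 0.00861, edgeR). The non-targeting values were 1.12, 0.88 and 0.45, without a test. The CDK inhibitor genes CDKN1A and CDKN1B had 0.18 and 0.04 (adjusted p 0.614 and 0.868, edgeR), and CDKN2B had no count in any library. With the replicate block NDRG2 was called as higher (0.32, adjusted p 0.0702 without and 0.0176 with the block, edgeR). DDIT3, a stress response factor, was the only tested gene of the list below 0 (-0.50, adjusted p 0.052, edgeR), and was called as lower with the block (adjusted p 0.00151). The list also held 1 gene called as lower with DESeq2, with limma voom, without the filter and without HBG1 sgRNA rapamycin replicate 1. CCNG2 lost its call without HBG1 sgRNA rapamycin replicate 3 (adjusted p 0.0786), and BTG1 without that library or HBG1 sgRNA DMSO replicate 2 or 3 (adjusted p up to 0.0545, edgeR).

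**Figure D4:**
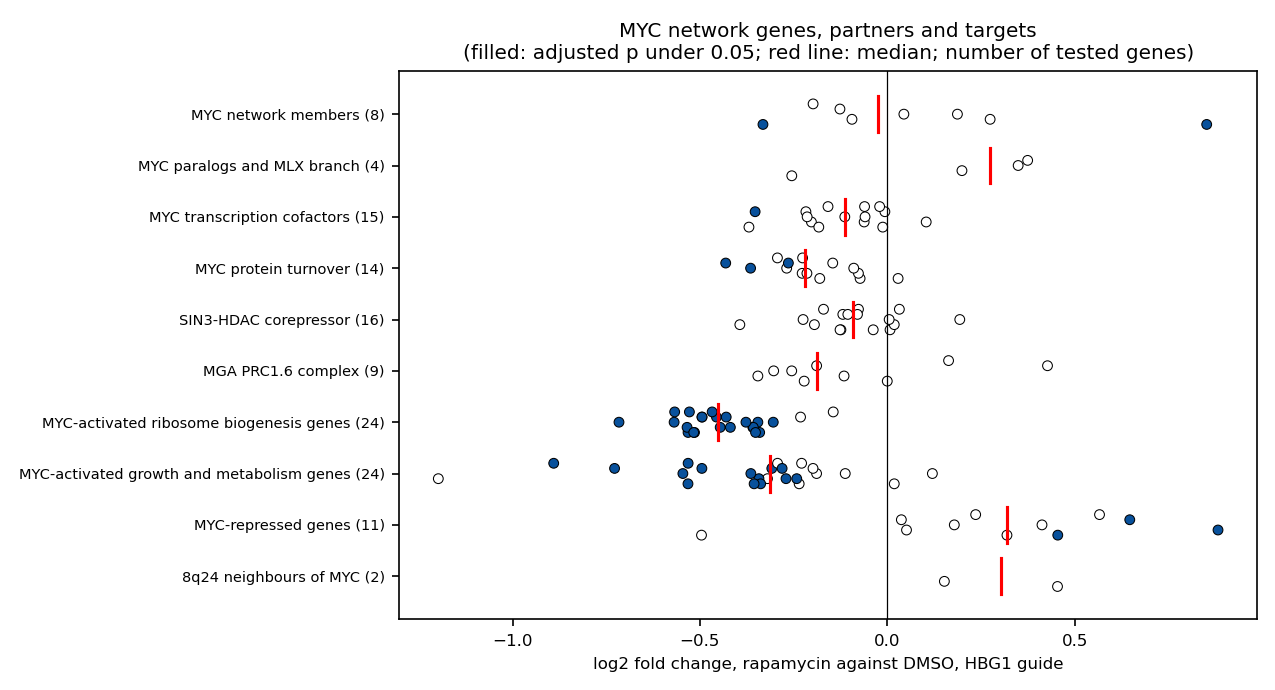
Log2 fold change between rapamycin and DMSO with the HBG1 guide (horizontal axis) for each tested gene of the network and of 9 related lists (number of tested genes in brackets). Filled points are called at an adjusted p under 0.05 and red lines are list medians. The points of the ribosome biogenesis list all lie left of 0, with a median of -0.45, and in the network itself MXD4 lies far to the right at 0.85 and MAX to the left at -0.33.

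Likeness was measured as Pearson's correlation of log2 CPM over the 9 libraries with 11464 other genes, and is a description of libraries that share treatment and guide. The genes most like MXD4 were ACCS (0.99), KDM7A-DT, AKR1C1, DERL3 and PPP1R15A (each 0.98). Each was called as higher under rapamycin in HBG1 sgRNA cells, with log2 fold changes of 0.50, 0.61, 0.70, 0.82 and 0.38. Of all tested genes 2.75% were called as higher. MXD4 itself separates the treatments in these libraries, so genes picked for likeness to it do so by choice, and their calls are no separate result. The genes most like MYC were NPL (0.95), TMEM98, FKBP8, H3F3AP4 and AP006621.1 (each 0.94), with log2 fold changes of 0.21, 0.17, 0.30, 0.43 and 0.50. The last 3 of these were called as higher, and they too were picked from the same libraries.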

How the data were processed

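Poly-T selected RNA of 9 libraries was sequenced, and the authors deposited a table of raw read counts, whose rows are Ensembl genes and whose columns are the libraries. The submitters' processing notes name STAR 2.7.3a, featureCounts, Subread 2.0.0 and GRCh38, with no role. Strand setting, annotation and treatment of shared reads are not given in the sources used here, so reads in bases shared by genes may be dropped or miscounted. Of 58347 IDs, 99.47% were found in GENCODE 29, which gave symbols, positions and exon lengths. Members and lists were chosen with earlier results of these data known.

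Genes were filtered with edgeR's filterByExpr (minimum count 10) and scaled by TMM. All 9 libraries entered a quasi-likelihood fit in edgeR 4.0.16 (R 4.3.3) with 1 mean per group. Standard errors are the log2 fold change over the square root of F. Alternatives were other scalings, no filter, DESeq2 1.42.0, limma 3.58.1 voom, a replicate block and leaving out each library. The main fit was tested on simulated counts with known changes between the HBG1 sgRNA groups. It called 32.8% of log2 changes of 0.5, 61.5% of those of 1 and 71.2% of those of 2. Of its calls 4.46% were false. Changes smaller than 0.5 were not simulated. Comparisons with the single non-targeting DMSO library got no test, apart from the interaction.

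No replicate pair was a repeat of 1 library (chi-square per gene 4.48 to 16.3). Over 11498 genes, HBG1 sgRNA libraries of the same number deviated together from their groups (r 0.55, 0.28 and 0.23 for numbers 1, 2 and 3). All exceed the limit of 0.1 that was set for treating the numbers as pairs. Numbers 2 and 3 also correlated crosswise (0.26 and 0.19), so these values do not tell those 2 pairs apart. The main fit did not use the pairing, and the replicate block did. Named from each list are up to 3 called genes per direction with the largest change, all MYC paralogs and MLX branch genes, PVT1 and the 5 genes most like MYC and the most changed member. Other genes in the text were chosen after their values were seen, and some marker genes are not reported here.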

Additional observations from a re-analysis of the deposited data

How the results depend on the processing

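MXD4 stayed higher and called under rapamycin in HBG1 sgRNA cells under all 17 alternatives (log2 fold change 0.77 to 0.91 when 1 library was left out). The number of members called was 2, became 1 with upper quartile scaling and 4 with the replicate block, and ran from 1 to 2 when a library was left out. The block added MYC and MXD3 and changed no other member's call. Genes called were 1609, 3441 with the block, and 664 (without HBG1 sgRNA DMSO replicate 2) to 1731 when a library was left out. Between guides under rapamycin, 7 genes became 91 without a filter and 13 with DESeq2 or with the replicate block, and ran from 3 (without non-targeting rapamycin replicate 1) to 8. In the interaction, 1 gene became 0 with library size alone or DESeq2, 8 without a filter, 3 with limma voom or the replicate block, and ran from 0 to 4. No member was called in these 2 comparisons under any alternative run.

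Signs of these values turned, none of them called. MXD4 between guides was 0.0069 with upper quartile scaling, 0.010 with library size alone and 0.0051 with the replicate block. The interaction of MYC was 0.0023 with library size alone and 0.0099 with the replicate block, and that of MXD4 was 0.0084 with the replicate block. Leaving out 1 library gave -0.15 to 0.0079 (without HBG1 sgRNA rapamycin replicate 1) for MGA, -0.028 (without HBG1 sgRNA rapamycin replicate 2) to 0.11 for MNT and -0.057 (without HBG1 sgRNA rapamycin replicate 1) to 0.30 for PVT1 between treatments, -0.084 to 0.086 for MXD4 between guides, and interactions of -0.048 to 0.063 for MYC and -0.34 to 0.069 (without non-targeting rapamycin replicate 1) for MGA. MGA with the non-targeting sgRNA, at 0.06, was at -0.16 without rapamycin replicate 1. The interaction without the non-targeting DMSO library could not be fitted. The cause of these changes was not tested. No scaling moved the median of all genes by more than 0.038 on the log2 scale. Groups of 1 to 3 libraries limit what can be called.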

Other observations

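The neighbours of MYC on chromosome band 8q24 were read from the same fit. PVT1, the non-coding RNA gene next to MYC, had 33.9 ± 5.79 CPM under DMSO and 37.9 ± 9.05 CPM under rapamycin with the HBG1 sgRNA (SD, n = 3 each). Its log2 fold change was 0.15 (95% interval -0.16 to 0.46, adjusted p 0.613, edgeR), so no difference was detectable beyond the spread. CCDC26, a non-coding RNA gene of the same band, had 15.6 ± 3.88 and 21.6 ± 6.78 CPM (SD, n = 3 each) and a log2 fold change of 0.45 (adjusted p 0.194, edgeR), and was called as higher with the replicate block (adjusted p 0.00807, edgeR). Without HBG1 sgRNA DMSO replicate 1, the list held 1 gene called as higher. Without HBG1 sgRNA rapamycin replicate 1, PVT1 was at -0.057. CASC11, PCAT1, LRATD2, GSDMC and POU5F1B stayed at or below 0.421 CPM in every library and were not tested.

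TERT, a textbook MYC target for the telomerase subunit, had 0.947 ± 0.389 CPM with rapamycin and 2.17 ± 0.35 CPM with DMSO in HBG1 sgRNA cells (SD, n = 3 each). The log2 fold change of -1.20 was the largest on its list but was not called (SE 0.47, adjusted p 0.15, edgeR). It was called as lower with the replicate block (adjusted p 0.0348, edgeR). TERT was low in every library, at 0.318 to 2.43 CPM, so few counts set this fold change. With the non-targeting sgRNA it was -0.70, without a test.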
